A study of Mus musculus with 18 samples.

Results

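The 10 genes described here belong to the BMP signalling pathway and its ID targets. They are the ligand gene Bmp4, the receptor genes Bmpr1a and Bmpr2, the SMAD genes Smad1, Smad5 and Smad6, and the inhibitor of DNA binding genes Id1, Id2, Id3 and Id4. They were chosen by name and matched through their Ensembl identifiers among the 53801 genes of the count table. All 10 passed the filter on low counts and were tested, among 18469 genes tested in all.

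RNA was measured by sequencing of poly(A) RNA in mouse embryonic stem cells (ESCs) of 2 lines, WT (E14, given as ES-E14TG2a in the methods) and iEZR_CA, which expresses a phosphomimetic, constitutively active ezrin under doxycycline control. Ezrin is a protein that ties the cell membrane to cortical actin. Cells of each line were taken in 2i+LIF, which holds ESCs in the naive state (ESC, 0 h), or after 24 h (T24) or 48 h (T48) in N2B27, a medium without these factors, with 3 replicates in each of the 6 groups. Doxycycline was given to iEZR_CA cells about 16 h before exit and is not given for WT cells, so the drug, the transgene and the line cannot be told apart in any comparison of the lines. WT is named as the parental line, no genotype other than the transgene is given, and whether iEZR_CA is 1 clone is not stated in the sources used here. The libraries are bulk samples, so fewer cells expressing a gene and less RNA per cell cannot be told apart.

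Bone morphogenetic proteins (BMPs) such as BMP4 are secreted ligands. They bring together type I receptors such as BMPR1A and type II receptors such as BMPR2, and the type I receptor then phosphorylates SMAD1 and SMAD5, which enter the nucleus with SMAD4 and activate transcription. SMAD6 is an inhibitory SMAD that is itself induced by BMP signals and restrains them. The ID genes are classical targets of the pathway. ID proteins lack a DNA-binding domain and hold bHLH transcription factors, above all the E proteins, away from DNA. In mouse ESCs, BMP4 and ID proteins are known for supporting self-renewal together with LIF.

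Upstream sequences are shown for 3 members whose 250 bases before the transcription start contain no annotated exon and whose levels are described below: Bmp4, which was higher in iEZR_CA cells at every stage, and Smad6 and Id4, whose change to T24 differed between the lines. The sequences are from RefSeq on build GRCm38.p6, written 5′ to 3′ on the strand of the gene. Bmp4 is on the minus strand, with this window at chr14:46390670-46390919. The window of Smad6, also on the minus strand, is chr9:64022060-64022309, and that of Id4, on the plus strand, is chr13:48260866-48261115. Capitals mark GGCGCC, the core of a GC-rich element known from BMP response elements, and the SMAD box GTCT, or AGAC on the other strand.
Bmp4: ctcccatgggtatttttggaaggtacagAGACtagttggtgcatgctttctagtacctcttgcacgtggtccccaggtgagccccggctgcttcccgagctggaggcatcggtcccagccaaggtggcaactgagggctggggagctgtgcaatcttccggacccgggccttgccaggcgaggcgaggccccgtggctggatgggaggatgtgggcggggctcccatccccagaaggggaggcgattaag
Smad6: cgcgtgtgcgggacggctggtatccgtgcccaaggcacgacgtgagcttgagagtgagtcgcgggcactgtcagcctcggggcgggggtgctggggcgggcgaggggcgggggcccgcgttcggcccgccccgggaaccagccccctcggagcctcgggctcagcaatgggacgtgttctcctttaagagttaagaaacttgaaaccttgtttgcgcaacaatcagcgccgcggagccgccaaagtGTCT
Id4: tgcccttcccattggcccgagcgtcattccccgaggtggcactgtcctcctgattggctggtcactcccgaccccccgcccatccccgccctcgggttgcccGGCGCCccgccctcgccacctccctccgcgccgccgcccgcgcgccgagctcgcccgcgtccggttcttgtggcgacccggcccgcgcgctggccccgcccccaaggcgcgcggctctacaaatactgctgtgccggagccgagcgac
The Bmp4 window held 1 SMAD box and 0 GGCGCC, the Smad6 window 1 SMAD box and 0 GGCGCC, and the Id4 window 1 GGCGCC and 0 SMAD boxes. The E box CANNTG, the site bound by bHLH factors, occurred 3 times in the Bmp4 window and 0 times in the Smad6 and Id4 windows. In the same 250 upstream bases of 32851 RefSeq promoters, 9.59% held GGCGCC, 82.9% a SMAD box and 66.2% an E box, so most windows hold a SMAD box. RefSeq windows were matched for 9 of the 10 members, the exception being Id1. GGCGCC was also found in the windows of Bmpr1a, Bmpr2 and Id2 (1 each) and in 1 of the 3 windows of Smad5. Unlike the sequences shown, these windows overlap annotated exons, over 141 bases for Bmpr1a, 250 for Bmpr2, 161 for Id2 and 42 for Smad5. These matches describe the letters of the windows only.

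The libraries held 10940752 to 33276622 reads on genes (median 23096248), and the biological coefficient of variation was 2.98%, so small differences could pass the test. Values below are counts divided by DESeq2 size factors (normalized counts), unless given per kb of exon. Counts of Ezr, in which reads of the endogenous gene and the transgene cannot be told apart, lay between 7539 and 12017 in WT and between 16067 and 25358 in iEZR_CA libraries. The pluripotency markers Pou5f1, Nanog and Sox2 were above the floor of 3 counts in every group. They summed to 50755 to 51958 in WT and 42659 to 43920 in iEZR_CA ESCs. At T24 they summed to 29652 to 29776 and 30539 to 31290, and at T48 to 15567.5 to 16672 and 16009 to 16505. Among markers of other cell types, the summed level of 5 trophoblast genes was 331 to 340.5 in WT ESCs and 1551 to 1652 in iEZR_CA ESCs, 159 to 175 and 969 to 1019.8 at T24, and 147 to 157 and 517 to 574 at T48. Tfap2a made up most of it (mean 265 and 1411 in ESCs, 119 and 727 at T24). The defining marker Elf5 was at the floor in WT ESCs, in WT T24 and in both lines at T48. Cdx2, also of this list, was at the floor at T24 in both lines. The 7 primitive endoderm genes summed to 236 to 262 in WT and 747 to 806 in iEZR_CA ESCs, of which Dab2 alone averaged 631 in the latter, and Sox7 was at the floor there. At T24 they summed to 132 to 172 in WT and 382 to 431 in iEZR_CA cells, and at T48, where the order turned, to 297 to 334 and 230.0 to 266. Dab2 alone averaged 303 in iEZR_CA cells at T24. The highest gene of the list in WT cells was Gata4 in ESCs (97.5) and Gata6 at T24 (40.7). Dab2 thus made up most of the iEZR_CA sum in ESCs and at T24, and these sums do not show that the list as a whole was higher. The 4 neural genes summed to 302 to 321 in WT and 215 to 223 in iEZR_CA ESCs, to 755 to 869 and 447 to 486 at T24, and to 602 to 780 and 441 to 463 at T48. The 5 mesendoderm genes summed to 527 to 569.8 and 653 to 709.8 in ESCs, to 133 to 145 and 162 to 193 at T24, and to 127 to 141 and 239 to 279 at T48. The 5 fibroblast genes summed to 34.1 to 54.6 in ESCs of both lines, and at T48 to 575 to 639 in WT and 351 to 435 in iEZR_CA cells. The lists differed between the lines in different directions, and their part in the results below was not tested.

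Counts were tested with edgeR's quasi-likelihood test, and p-values were adjusted by the Benjamini-Hochberg method over all 18469 genes, with a threshold of 0.05. A log2 fold change (log2FC) is given with its standard error (SE). In ESCs, 5 members were higher and 2 lower in iEZR_CA than in WT cells, where 26.4% of all genes tested were higher and 28.1% lower. At T24, all 10 members were higher, where 30.8% of all genes were higher and 30.1% lower. With scaling to the spike-in sequences Bmpr1a was the member that no longer passed at T24. At T48, 6 members were higher and 3 lower, where 31% of all genes were higher and 30.1% lower. The median log2FC of the members was 0.14 in ESCs, 0.67 at T24 and 0.30 at T48, and that of all genes was -0.01, -0.002 and 0. Differences of over 2-fold were found for 3 members in ESCs (11.9% of all genes), 4 at T24 (14.9%) and 4 at T48 (16.1%).

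**Figure D1:**
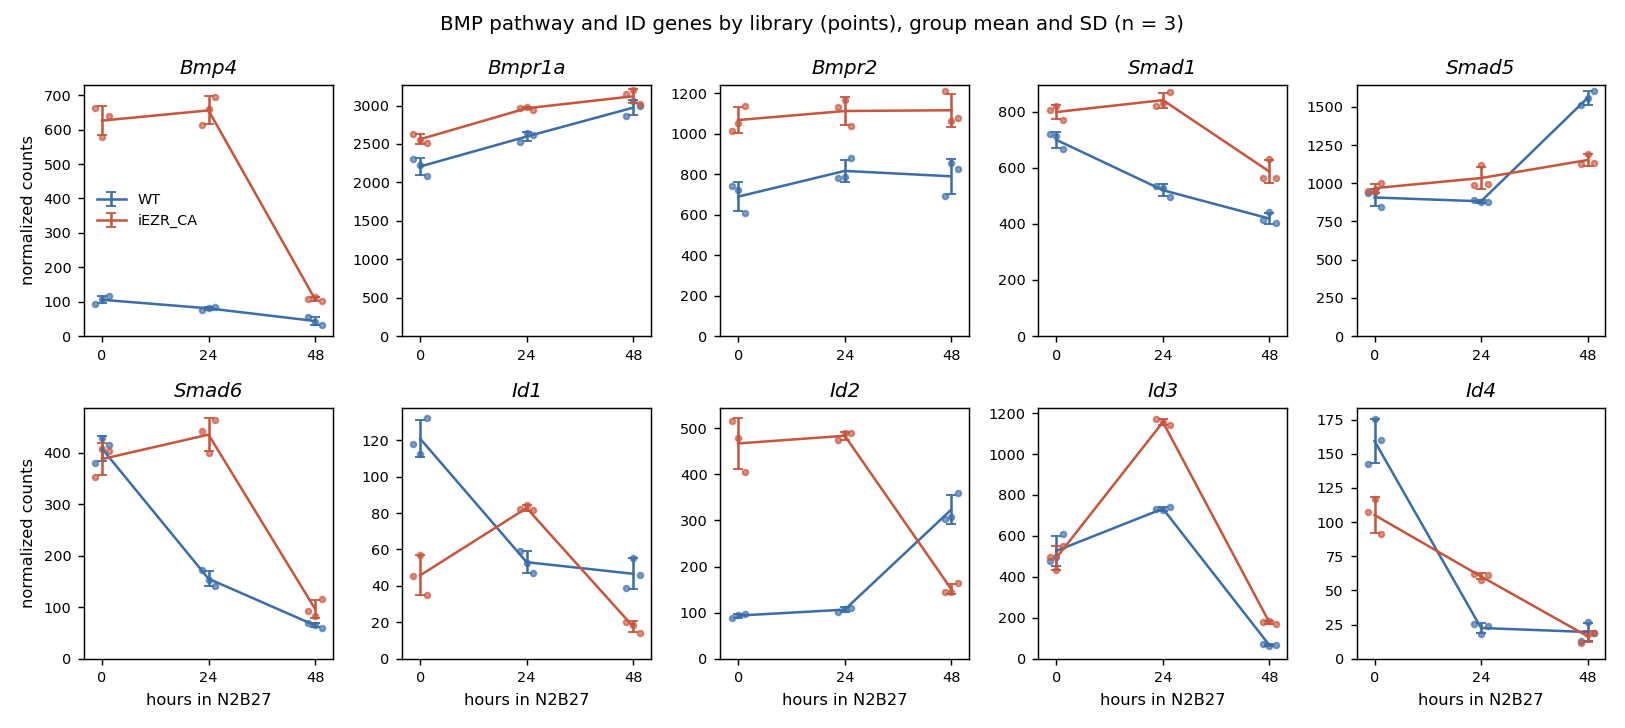
Normalized counts of the 10 members against hours in N2B27 (0 h, ESCs in 2i+LIF), with points for single libraries, lines through group means and bars for the SD (n = 3), in WT (blue) and iEZR_CA (red) cells. Bmp4 of iEZR_CA cells lies above 570 until 24 h and near 107 at 48 h, and the curves of the 2 lines cross for Smad5, Smad6 and the 4 ID genes.

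Bmp4, the ligand, was the member with the largest difference between the lines in ESCs and at T24. In WT ESCs its normalized counts were 94.4, 106 and 116, and in iEZR_CA ESCs 662, 578 and 638. At T24 they were 74.7, 81.8 and 85.1 in WT and 614, 659 and 695 in iEZR_CA cells. At T48 they were 56.4, 42.1 and 32.7 in WT and 107, 113 and 102 in iEZR_CA cells. The groups of the 2 lines did not overlap at any stage, and the iEZR_CA cells at T48 had come down to the range of WT ESCs. Bmp4 was 5.82-fold higher in iEZR_CA ESCs (log2FC 2.54, SE 0.089, adjusted p = 6.3e-36), 8.32-fold higher at T24 (log2FC 3.06, SE 0.094, adjusted p = 3.3e-39) and 2.44-fold higher at T48 (log2FC 1.29, SE 0.15, adjusted p = 1.5e-11). Over time it fell in WT cells at both steps, by 0.44 on the log2 scale to T24 and by 0.83 from T24 to T48. In iEZR_CA cells the change to T24 was 0.08 (adjusted p = 0.34), and from T24 to T48 the gene fell by 2.61, a 6.09-fold decrease.

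In order of mean, the iEZR_CA T24 (656) and ESC (626) groups overlapped, as did iEZR_CA T48 (107) and WT ESC (105.5), and then came WT T24 (80.5) and WT T48 (43.7), each apart from its neighbour. Bmp4 lies at chr14:46383520-46390669 (GRCm38, minus strand). Gm15217 is annotated across it on the other strand and held 0 to 4 counts per library. The summed trophoblast list was also higher in iEZR_CA cells at every stage, and its part in the Bmp4 values was not tested. The WT decrease to T24 did not pass the test with scaling to the spike-in sequences (adjusted p = 0.2), and the other calls for Bmp4 given here did.

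The receptor genes differed less. Bmpr1a, a type I receptor, had the highest level of the 10 members per kb of exon in WT ESCs (347). Its normalized counts were 2309.7, 2226 and 2084 in WT ESCs and 2628, 2550.5 and 2506 in iEZR_CA ESCs. At T24 they were 2532, 2637 and 2620 in WT and 2966, 2978 and 2948 in iEZR_CA cells, again without overlap. At T48 they were 2868, 3057 and 2991 in WT and 3146, 3196 and 3019 in iEZR_CA cells, and the groups overlapped. The log2FC between the lines was 0.21 (SE 0.034) in ESCs, 0.19 (SE 0.033) at T24 and 0.08 (SE 0.033, adjusted p = 0.026) at T48. It passed the test at each stage, but with scaling to the spike-in sequences at none (log2FC 0.26, 0.27 and 0.13), and the T48 value was no longer called with DESeq2 (adjusted p = 0.1), with at least 10 counts in every library (adjusted p = 0.051), after centring on the 5 Mb median (log2FC 0.02, adjusted p = 0.61) or without WT replicate 1 or 3 or iEZR_CA replicate 1 or 2 (log2FC 0.05 to 0.08). Bmpr1a rose in both lines, by 0.41 in WT and 0.28 in iEZR_CA cells from ESC to T48.

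Bmpr2, the type II receptor, was higher in iEZR_CA cells at all 3 stages. WT libraries held 741, 720 and 607 in ESCs, 782, 788 and 878 at T24 and 691, 855 and 823 at T48. iEZR_CA libraries held 1015, 1051 and 1137 in ESCs, 1130.4, 1168 and 1038 at T24 and 1211, 1062 and 1076 at T48. Every iEZR_CA library was above every WT library. The log2FC was 0.62 (SE 0.090) in ESCs, 0.46 (SE 0.087) at T24 and 0.53 (SE 0.088) at T48, with adjusted p-values of 2.2e-05, 0.00026 and 7.7e-05. Of its changes between stages, that of WT cells from ESC to T24 passed the test (0.22, adjusted p = 0.047), and it no longer did in 9 of the 18 fits that left out 1 library, those of any WT T24 replicate, WT ESC replicate 2 or 3, iEZR_CA ESC replicate 1 or 2, iEZR_CA T24 replicate 1 and iEZR_CA T48 replicate 3 (0.13 to 0.26). The WT change from ESC to T48 (0.16, adjusted p = 0.13) was called with DESeq2 (0.19, adjusted p = 0.043), with spike-in scaling (0.43, adjusted p = 0.0023), with no filter on low counts (0.14, adjusted p = 0.042) and without WT T48 replicate 1 (0.27, adjusted p = 0.0051), and that of iEZR_CA cells (0.07, adjusted p = 0.48) with spike-in scaling (0.30, adjusted p = 0.036).

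**Figure D2:**
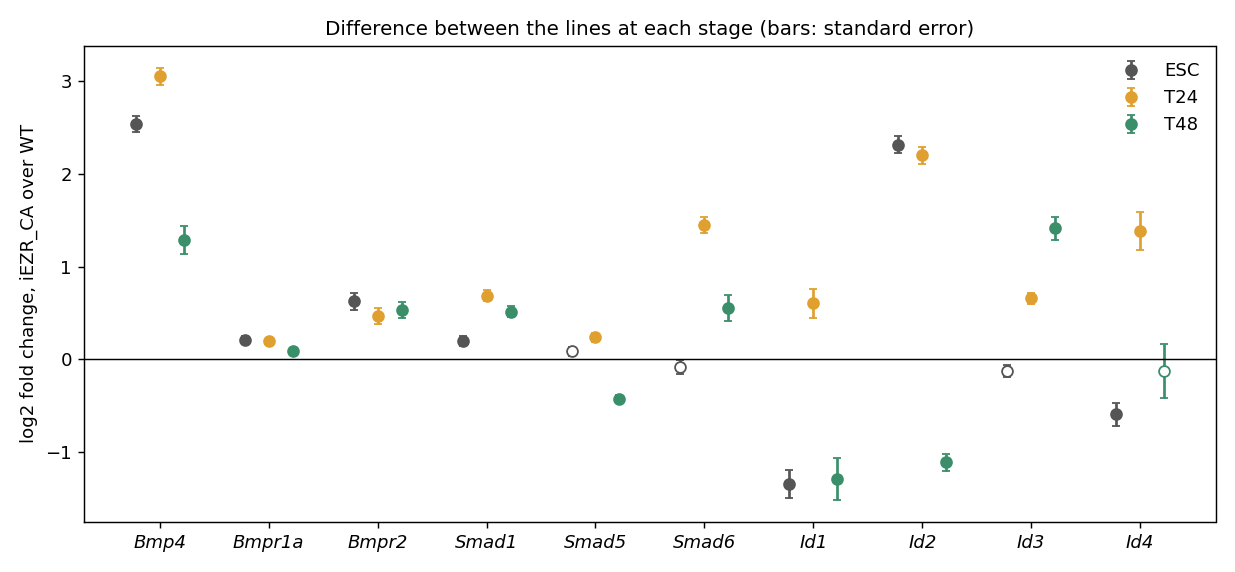
Log2 fold change of iEZR_CA over WT cells for each member in ESCs (grey), at T24 (yellow) and at T48 (green), with bars for the standard error. Filled points have an adjusted p-value under 0.05, open points do not. All points of T24 lie above 0, while Smad5, Smad6 and the 4 ID genes take both signs over the 3 stages, of which the ESC values of Smad5, Smad6 and Id3 and the T48 value of Id4 are open points.

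Among the SMAD genes, Smad1 and Smad5, which carry the signal, behaved differently from each other. Smad1 held 719, 712 and 667 in WT ESCs, 535, 528 and 496.5 at T24 and 413, 442 and 402 at T48. In iEZR_CA cells it held 805, 820.3 and 770.0 in ESCs, 820.1, 831 and 871 at T24 and 564, 632 and 562 at T48. The groups were apart at each stage, with a log2FC of 0.19 (SE 0.053, adjusted p = 0.0016) in ESCs, 0.69 (SE 0.055, adjusted p = 9.4e-18) at T24 and 0.51 (SE 0.060, adjusted p = 2.4e-11) at T48. Smad1 fell at both steps in WT cells (by 0.43 and 0.34). In iEZR_CA cells the change to T24 was 0.07 (adjusted p = 0.27), and then it fell by 0.51. With spike-in scaling the ESC difference was 0.24 and was not called (adjusted p = 0.18), and the WT changes were -0.30 (adjusted p = 0.057) and -0.20 (adjusted p = 0.25).

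In ESCs Smad1 differed between the lines by about as much as the genes around it, for a reason that was not tested. It lies on chromosome 8 (79338395 to 79399518), whose 683 genes averaging 50 or more normalized counts had a median log2FC between the lines of 0.19 in ESCs, 0.24 at T24 and 0.20 at T48, when all such genes had -0.01, 0.002 and 0.02. Within 5 Mb on either side the median of 54 genes was 0.25, 0.28 and 0.30. Relative to the median of the chromosome the ESC difference of Smad1 was -0.01, and relative to its neighbours -0.07, so its call in ESCs was lost and its sign turned. The higher levels at T24 and T48 still passed the test, but relative to its neighbours the difference was smaller, 0.40 at T24 and 0.24 at T48. Chromosome 14, with Bmp4 and Bmpr1a, had a median of -0.30, -0.35 and -0.24. The 5 Mb neighbourhoods of both genes, however, were between -0.12 and 0.08. For the other 7 members the chromosome median was between -0.04 and 0.05 and the neighbourhood median between -0.13 and 0.12.

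Smad5 held 935, 940 and 846 in WT ESCs, 893, 875 and 878 at T24 and 1513, 1556 and 1606 at T48, so that it rose at T48 in WT cells. In iEZR_CA cells it held 952, 949 and 1002 in ESCs, 986, 1118 and 998 at T24 and 1128, 1195 and 1133 at T48. The log2FC between the lines was 0.08 (SE 0.049, adjusted p = 0.14) in ESCs, 0.24 (SE 0.048, adjusted p = 2e-05) at T24 and -0.43 (SE 0.044, adjusted p = 3e-13) at T48. After centring on the 5 Mb median the ESC difference was 0.16 and was called (adjusted p = 0.0047). From T24 to T48 it rose by 0.82 in WT and by 0.15 in iEZR_CA cells, a difference of -0.67 (SE 0.066, adjusted p = 1.2e-13). The iEZR_CA rise was not called with spike-in scaling (0.26, adjusted p = 0.1) or without iEZR_CA T48 replicate 2 (0.12, adjusted p = 0.059). From ESC to T24 Smad5 changed by 0.10 in iEZR_CA cells (adjusted p = 0.061), and this change was called in 7 of 24 alternative fits.

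Smad6, the inhibitory SMAD, had similar levels in ESCs of both lines and then separated. WT libraries held 380, 428 and 416 in ESCs, 171, 152 and 142 at T24 and 68.8, 65.01 and 60.6 at T48. iEZR_CA libraries held 352, 407 and 403 in ESCs, 442, 399.6 and 462 at T24 and 92.0, 82.3 and 116 at T48. At T24 every iEZR_CA library stood in or above the range of the ESCs, when WT cells had lost most of the transcript. The log2FC between the lines was -0.09 (SE 0.076, adjusted p = 0.36) in ESCs, 1.45 (SE 0.088, adjusted p = 2.8e-23) at T24 and 0.55 (SE 0.14, adjusted p = 0.00061) at T48. WT cells lost 1.38 on the log2 scale to T24 and 1.29 more to T48. iEZR_CA cells changed by 0.15 to T24 (adjusted p = 0.081) and fell by 2.19 from T24 to T48, and the change to T24 differed between the lines by 1.53 (SE 0.12, adjusted p = 6e-18). The iEZR_CA change to T24 was called with only the groups compared (0.17, adjusted p = 0.037). It was also called without iEZR_CA T24 replicate 2 (0.22, adjusted p = 0.026).

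The 4 ID genes each had a course of their own. Id1 held 118, 112 and 132 in WT ESCs and 45.4, 56.9 and 35.0 in iEZR_CA ESCs. At T24 it held 59.3, 52.5 and 47.3 in WT and 82.3, 84.3 and 81.6 in iEZR_CA cells. At T48 it held 38.6, 55.4 and 45.8 in WT and 20.1, 18.5 and 14.4 in iEZR_CA cells. The groups did not overlap at any stage, and the line with the higher level changed from stage to stage. Id1 was 2.56-fold lower in iEZR_CA ESCs (log2FC -1.35, SE 0.15, adjusted p = 6.6e-12), 1.52-fold higher at T24 (log2FC 0.60, SE 0.16, adjusted p = 6e-04) and 2.46-fold lower at T48 (log2FC -1.30, SE 0.22, adjusted p = 7.9e-07). To T24 it fell by 1.16 in WT and rose by 0.80 in iEZR_CA cells, and this difference of 1.96 (SE 0.22) passed the test (adjusted p = 1.5e-11).

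Id2 was low in WT cells until T48 and high in iEZR_CA cells until T24. WT libraries held 88.8, 95.6 and 96.2 in ESCs, 101.1, 108 and 110.3 at T24 and 302, 308 and 360.1 at T48. iEZR_CA libraries held 516, 479 and 406 in ESCs, 473, 488 and 489 at T24 and 144, 145 and 164 at T48. Id2 was thus 4.98-fold higher in iEZR_CA ESCs (log2FC 2.32, SE 0.093, adjusted p = 2.1e-32), 4.60-fold higher at T24 (log2FC 2.20, SE 0.092, adjusted p = 5.9e-32) and 2.17-fold lower at T48 (log2FC -1.12, SE 0.090, adjusted p = 1.4e-17). From T24 to T48 it rose 3.09-fold in WT cells and fell 3.23-fold in iEZR_CA cells. The difference between these changes was -3.32 on the log2 scale (SE 0.13, adjusted p = 4.9e-33), the largest of the 10 members for this step.

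Id3 was the most abundant ID gene per kb in every group but WT T48. It held 475, 497 and 609.6 in WT ESCs and 497, 433 and 550.2 in iEZR_CA ESCs, which overlapped. At T24 it held 732, 725 and 742 in WT and 1171, 1156 and 1141 in iEZR_CA cells. At T48 it held 69.6, 61.2 and 67.1 in WT and 177, 185 and 169 in iEZR_CA cells. Id3 therefore rose and then fell in both lines, and stood higher in iEZR_CA cells at both later stages. The log2FC between the lines was -0.13 (SE 0.070, adjusted p = 0.11) in ESCs, 0.66 (SE 0.059, adjusted p = 1.8e-14) at T24 and 1.41 (SE 0.13, adjusted p = 2.2e-14) at T48. The ESC difference passed the test without WT replicate 1, WT replicate 2 or iEZR_CA replicate 3 (log2FC -0.19, -0.18 and -0.20). From T24 to T48 Id3 fell 10.9-fold in WT and 6.47-fold in iEZR_CA cells.

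Id4 held 143, 175 and 160.1 in WT ESCs and 107, 117 and 91.0 in iEZR_CA ESCs. At T24 it held 25.8, 18.2 and 23.6 in WT and 62.0, 57.7 and 61.0 in iEZR_CA cells. At T48 it held 13.1, 26.8 and 18.8 in WT and 11.7, 18.5 and 19.2 in iEZR_CA cells, where the groups overlapped. The log2FC between the lines was -0.59 (SE 0.12, adjusted p = 3.7e-05) in ESCs, 1.38 (SE 0.20, adjusted p = 2e-08) at T24 and -0.13 (SE 0.29, adjusted p = 0.72) at T48. To T24 it fell 7.03-fold in WT and 1.79-fold in iEZR_CA cells (difference 1.98, SE 0.24, adjusted p = 2e-10). A330033J07Rik and Gm49291 are annotated across Id4 on the other strand and held at most 1 and 0 counts in any library.

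Per kb of exon, the summed ID transcripts were 478 ± 50.1 (SD, n = 3) in WT ESCs, 504 ± 4.81 at T24 and 215 ± 15.0 at T48, and 534 ± 20.1, 931 ± 6.33 and 180.4 ± 2.81 in iEZR_CA cells. Id3 made up 61.4% of the sum in WT ESCs, 81.1% at T24 and 17.2% at T48. In iEZR_CA cells its share was 51.6%, 69.3% and 54.9%. Id2 made up 8.06%, 8.66% and 61.7% in WT and 35.9%, 21.3% and 34.3% in iEZR_CA cells. At T48 the largest part of the sum differed: Id2 in WT and Id3 in iEZR_CA cells.

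**Figure D3:**
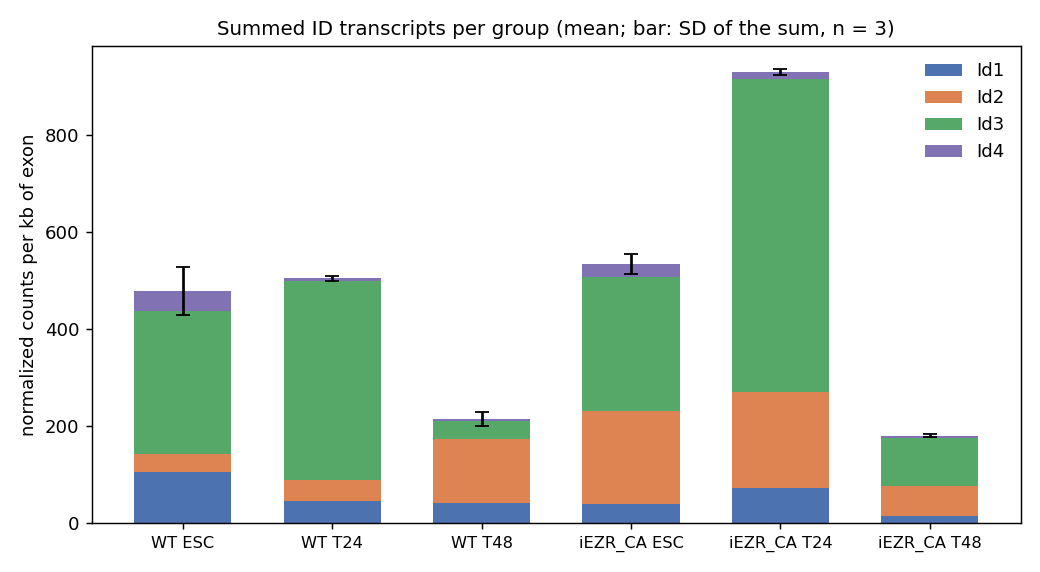
Mean normalized counts per kb of exon of Id1, Id2, Id3 and Id4, stacked, in the 6 groups, with bars for the SD of the sum (n = 3). The sum is highest in iEZR_CA cells at T24 (931) and lowest at T48 in both lines, where Id2 is the largest part in WT and Id3 in iEZR_CA cells.

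Over time, the members were called in these numbers. From ESC to T24, 3 rose and 5 fell in WT cells (31.8% and 33.6% of all genes), and 3 rose and 1 fell in iEZR_CA cells (27.1% and 28.9%). From T24 to T48, 3 rose and 4 fell in WT cells (32.8% and 32.9%), and 2 rose and 7 fell in iEZR_CA cells (29.6% and 30%). From ESC to T48, 3 rose and 6 fell in WT cells (37.1% and 37.4%), and 2 rose and 7 fell in iEZR_CA cells (35.2% and 35%). The rise of Bmpr1a in iEZR_CA cells from T24 to T48 was small (0.08, adjusted p = 0.034). It was no longer called in 13 of 24 alternative fits, among them DESeq2 (adjusted p = 0.097) and spike-in scaling (adjusted p = 0.26). The 7 members that fell in iEZR_CA cells from T24 to T48 were Bmp4, Smad1, Smad6 and the 4 ID genes. Of these, Smad1 fell by 0.51 on the log2 scale and Id3 fell by 2.69. The median change of the members at that step was -1.78 in iEZR_CA and -0.31 in WT cells, against 0.01 and 0.00 over all genes.

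The change from ESC to T24 differed between the lines for 6 members, all in the direction of a higher value in iEZR_CA cells. Of all genes, 38.3% differed in either direction, 3966 of 18469 toward a higher and 3115 toward a lower value in iEZR_CA cells. For the change from ESC to T48, 7 members differed (45.8% of all genes), and for T24 to T48, 8 members (46.2%). The comparisons share control groups, so these numbers are not independent of each other.

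Of 31 other genes of the pathway, 27 were tested. In ESCs 8 were higher and 8 lower in iEZR_CA cells, at T24 8 and 7, and at T48 13 and 9, against 26.4% and 28.1%, 30.8% and 30.1%, and 31% and 30.1% of all genes. Of these, Hand1 in ESCs had at most 3 counts in every library of both lines, and Bmp2 at T48 in every iEZR_CA library. Among the 4 target genes of this list (Dusp9, Msx1, Msx2 and Hand1), 1 was higher and 3 lower in iEZR_CA ESCs. At T24, 0 were higher and 2 lower, and at T48, 3 were higher and 0 lower. The median log2FC of the 27 was 0.00 in ESCs, -0.03 at T24 and 0.14 at T48. Bmp5, Grem1 and Cer1 were at the floor in every library and were not tested.

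By size of the difference, the leading pathway genes among those averaging 50 or more normalized counts are given here with their log2FC. In ESCs they were Chrd, which encodes the BMP antagonist chordin (-0.73), Dusp9, a MAP kinase phosphatase known as a BMP4 target in ESCs (-0.63), and the type II receptor gene Acvr2b (-0.58). At T24 they were the ligand genes Bmp7 (1.36) and Bmp8a (1.22) and the inhibitory SMAD gene Smad7 (0.84). At T48 they were Fst (-2.54), which encodes the activin and BMP antagonist follistatin, Smad7 (1.82) and Bmp8a (1.37).

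Smad7 held 2557 ± 77.8 (SD, n = 3) in WT and 2836 ± 102 in iEZR_CA ESCs, 1129 ± 72.6 and 2059 ± 225 at T24, and 94.9 ± 20.3 and 354 ± 31.4 at T48. Like Smad6, it was higher in iEZR_CA cells at T24 and T48. Fst held 137 ± 5.49 in WT and 162 ± 20.1 in iEZR_CA ESCs, 233 ± 23.7 and 221 ± 14.2 at T24, and 611 ± 27.7 and 105.1 ± 7.19 at T48, and from T24 to T48 it rose in WT cells (1.42, adjusted p = 5.2e-26) and fell in iEZR_CA cells (-1.09, adjusted p = 1.1e-14). The genes of the E proteins Tcf3, Tcf4 and Tcf12, which ID proteins bind, were named after their values were seen. In ESCs Tcf3 was lower in iEZR_CA cells (-0.31) and Tcf12 higher (0.19), and Tcf4 was not called (-0.06, adjusted p = 0.25). All 3 were lower at T24 (-0.19, -0.23 and -0.28) and at T48 (-0.33, -0.20 and -0.53). With spike-in scaling the sign was kept, but of these 6 differences that of Tcf12 at T48 alone passed the test.

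**Figure D4:**
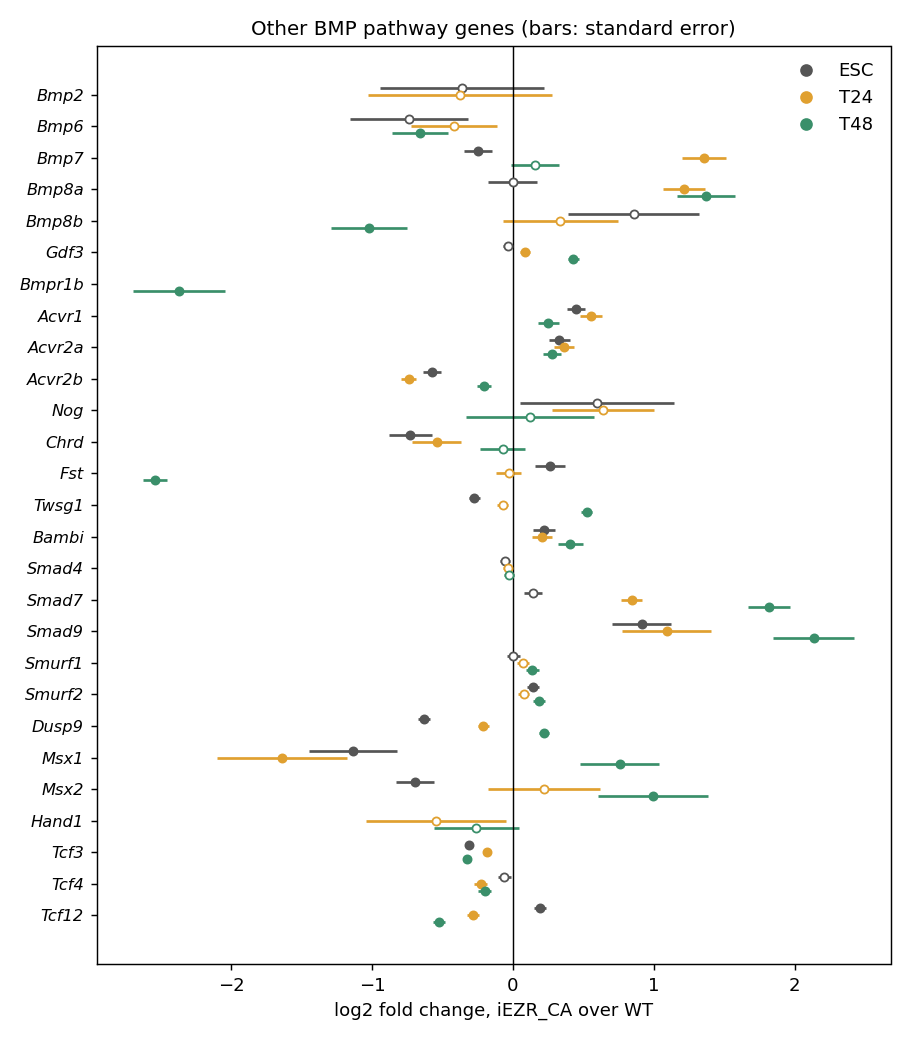
Log2 fold change of iEZR_CA over WT cells for the other BMP pathway genes tested, in ESCs (grey), at T24 (yellow) and at T48 (green), with bars for the standard error and filled points for an adjusted p-value under 0.05. Points are left out where a group was at the floor of 3 counts. Fst stands lowest at T48 (-2.54) and Smad7 is at 0.84 at T24 and 1.82 at T48.

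For each ID gene, the 3 genes most like it over the 18 libraries were found among 12801 genes averaging 50 or more normalized counts, by Pearson's r of log2(normalized count + 1). They were Pkp3, Etnk2 and Adnp2 for Id1 (r = 0.92 each), and Atp6v0e2 (0.96), Hmga2 (0.93) and Stard10 (0.92) for Id2. For Id3 they were Slc29a1 (0.99), Mib2 (0.98) and Bcam (0.98), and for Id4 Nucb1 (0.99), Sfrp1 (0.98) and Slc15a1 (0.98). The libraries fall into 6 groups of 3, so these values mainly describe the pattern of the 6 group levels. The genes were picked as the highest of 12801, so their r is high by the choice.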

How the data were processed

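RNA-seq counts of 18 libraries (6 groups of 3, grouped by the labels of cell line, medium and time) were analysed. The authors trimmed paired-end reads with Trim Galore 0.6.5, mapped them to mm10 with GSNAP and assigned them to the genes of Ensembl release 81 with HTSeq. Per the file headers and methods, the deposited table gives integer read counts by gene, without normalization or pooling. The strand setting of counting is not given in the sources used here, so reads of genes that overlap on opposite strands cannot be told apart, and reads with several alignments are not in the counts.

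Tests used edgeR 4.0.16 (R 4.3.3): filterByExpr, TMM (factors 0.975 to 1.03), a term per group (12 residual degrees of freedom) and the robust quasi-likelihood test, with Benjamini-Hochberg adjustment over 18469 genes. Standard errors came from the log2 fold change and the F statistic. Normalized counts use DESeq2 1.42.0 size factors. A group whose libraries all held 3 counts or fewer was taken to be at the floor. Symbols and exon lengths came from a GENCODE annotation of GRCm38, which held 53620 of 53801 identifiers. The script was tested on simulated data.

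Alternatives were DESeq2, its size factors in edgeR, scaling to 92 spike-in sequences, other count filters (including at least 10 counts in every library), only the groups compared, centring on chromosome or 5 Mb medians, and leaving out each library. Labels give plate wells and no replicate numbers. The labels do not say what separated the replicates, which the methods call biological, so p-values measure the spread between these libraries. The named pathway genes were those with the 3 largest log2 fold changes at each stage among those called and averaging 50 or more normalized counts, and those at the floor. The members and lists were chosen with earlier results of these data known.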

Additional observations from a re-analysis of the deposited data

Results flagged for a closer look

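A change with time that differed between the lines, by the interaction term of edgeR's quasi-likelihood test (adjusted p under 0.05), was found for 21 of the 30 values of the 10 members. These were 6 members from ESC to T24, 7 from ESC to T48 and 8 from T24 to T48. Of all genes tested, 38.3%, 45.8% and 46.2% differed at these steps. The third value of a gene follows from its first 2, so the 30 values are not independent. Values are the iEZR_CA change minus the WT change on the log2 scale. From ESC to T24 they were 0.51 for Bmp4, 0.50 for Smad1, 1.53 for Smad6, 1.96 for Id1, 0.79 for Id3 and 1.98 for Id4. From ESC to T48 they were -1.26 for Bmp4, -0.13 for Bmpr1a, 0.32 for Smad1, -0.51 for Smad5, 0.64 for Smad6, -3.43 for Id2 and 1.54 for Id3. From T24 to T48 they were -1.77 for Bmp4, -0.11 for Bmpr1a, -0.67 for Smad5, -0.90 for Smad6, -1.90 for Id1, -3.32 for Id2, 0.75 for Id3 and -1.51 for Id4. With spike-in scaling, the values of Bmp4 to T24, of Bmpr1a to T48 and from T24 to T48, and of Smad1 to T48 no longer passed the test. Those of Bmpr1a were also lost without single libraries and with no filter on low counts. Bmp4, Smad6, Id1 and Id4 thus differed with opposite signs in the first and the second day. The T24 libraries enter these 2 values of a gene with opposite signs, so the opposition is in part set by the calculation.

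The share of reads set aside for low alignment quality, which enters no comparison, was 0.519% to 0.612% in WT and 0.889% to 1.02% in iEZR_CA libraries. Its part in the values of the members was not tested.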

How the results depend on the processing

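The number of members called stayed within 1.5 times its value under every alternative and in all 12 comparisons. Scaling to the spike-in sequences moved the median of all genes by at most 0.07 in comparisons of the lines, but by 0.13 in WT cells and 0.14 in iEZR_CA cells to T24, and by 0.27 and 0.26 to T48, so changes with time are relative to that shift. Smad1 in ESCs turned to -0.0106 after centring on the chromosome median and to -0.0746 after centring on the 5 Mb median. With spike-in scaling, values that were not called also changed sign: Smad5 in WT cells to T24 (0.0821), Bmpr2 in WT cells from T24 to T48 (0.0729) and the line difference of the Bmpr1a change to T24 (0.0027, and 0.008 without a filter on low counts). Leaving out 1 library at a time turned the sign of values that were not called, over these ranges: Id4 between the lines at T48, -0.39 to 0.0687. Bmpr2 from T24 to T48, -0.11 to 0.0498 in WT and -0.0653 to 0.0449 in iEZR_CA cells, and from ESC to T48 in iEZR_CA cells, -0.0044 to 0.11. Id2 to T24 in iEZR_CA cells, -0.0387 to 0.10. Line differences of the change ranged from -0.0436 to 0.0279 for Bmpr1a to T24, from -0.0855 to 0.27 for Id1 to T48 and from -0.0492 to 0.11 for Bmpr2 from T24 to T48. The cause was not tested. Levels under about 20 normalized counts (Id1 in iEZR_CA cells and Id4 in both lines at T48) rest on the fewest reads.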
